A study of Mus musculus with 6 samples.

Results

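The genes described here are those of 4 developmental signalling systems, Wnt, fibroblast growth factor (Fgf), bone morphogenetic protein (Bmp) and Notch, in the olfactory epithelium of OMP-GFP mice. The rule for entry was the gene symbol and used no measured value, but it was set with earlier results of these data known. The symbols of 82 of the 18193 genes named on the array fitted the pattern, and 172 probe sets stand for them. For each gene the probe set of highest mean signal was used. Of the 82, 51 encode ligands, 22 encode receptors, and 4 encode intracellular relatives of the Fgf proteins (Fgf11 to Fgf14). The other 5 match the symbol pattern but encode none of these.

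Total RNA was taken from olfactory epithelium, the lining of the nose in which the neurons that detect odours lie. There were 3 samples from mice homozygous and 3 from mice heterozygous for the OMP-GFP allele, each on its own Affymetrix mouse 430 2.0 array. In this line, as background, green fluorescent protein replaces the coding sequence of Omp, the gene of olfactory marker protein, in mature olfactory neurons. Homozygous mice then lack that protein, and heterozygous mice keep an intact allele and carry fewer copies of the reporter. The study asked how olfactory marker protein affects transcript levels, but no wild-type group was analysed here, so loss of the protein and gain of reporter copies cannot be told apart. No source used here gives the age, sex, strain background or pooling of the animals, so a p-value reflects only how these samples vary, which may be technical in part. All animals were kept under normal laboratory conditions and carry the reporter.

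All 4 systems pass short-range signals between cells. Wnt proteins bind Frizzled receptors, Fgf proteins bind receptor tyrosine kinases, Bmp proteins bind paired serine/threonine kinase receptors, and the Notch receptors are bound by Delta-like and Jagged proteins on the surface of a neighbouring cell. The olfactory epithelium renews its neurons throughout life from basal stem cells, and these systems are known there for setting the balance between stem cells, neuronal precursors and supporting cells. The sampled tissue also includes glands, vessels, nerve bundles and skeletal tissue, in which the same ligands and receptors are used.

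The arrays carried the markers of the labelled tissue. Stoml3, of mature olfactory neurons, read between 15125 and 20031 (MAS5 signal, the probe set's summarised brightness on a linear scale), and Cyp2g1, of sustentacular cells, between 17796 and 18562. Among the mature neuron markers Cngb1 was the only one of 6 below the filter of the test. Of the 2 Omp probe sets 1 read 7918.5 to 8774 over all arrays, and the other read 5.7, 8.8 and 31.3 in homozygous 1, 2 and 3, and 26.3 in the library labelled heterozygous 1, which therefore lies with the homozygous arrays there, against 4664 and 9143 in heterozygous 2 and 3. Where either probe set lies in the gene is not known here. The same library stood apart in the myelin genes Mbp, at 7268.5 against 655 to 1038 elsewhere, and Pmp22, at 4899 against 851 to 1206. Heterozygous 3 stood apart in the summed signal of 8 olfactory bulb and brain markers, with 2738 against 986 to 1354. Homozygous 1 stood apart in Xist, with 112 against 5727 to 10210. Another sex-linked gene, Eif2s3y, varied within both groups. It read 1485, 1060 and 8.0 in homozygous 1, 2 and 3, and 435, 32.8 and 533 in heterozygous 1, 2 and 3. Whether the samples differ in their mix of sexes was not tested. What leaving out each library that stood apart does to the signalling genes is given below. Fewer cells of a type and less RNA per cell cannot be told apart in these bulk samples.

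Most receptor genes, but a minority of ligand genes, were read above the filter. The test kept genes whose mean log2 signal was at or above the median of all probe sets, which corresponds to a signal of about 154.6, and 19 of 22 receptors passed it against 17 of 51 ligands. Of all genes on the array 62.8% passed, and of these signalling genes 41 of 82. The ligands were 5 of 19 Wnt genes, 3 of 18 secreted Fgf genes, 5 of 9 Bmp genes and 4 of 5 Notch ligand genes. The receptors were 9 of 10 Frizzled genes, 4 of 5 Fgf receptor genes, all 3 Bmp receptor genes and 3 of 4 Notch genes. Dll4, with 124.8, and Notch4, with 130.1, were among those below the filter. The nearest genes to it were Wnt9a, with a mean signal of 146.4 outside, and Fgf7, with 156.5 inside. A signal below the filter does not show that a transcript is absent, since detection calls were not used here and probe sets differ in how well they bind.

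**Figure D1:**
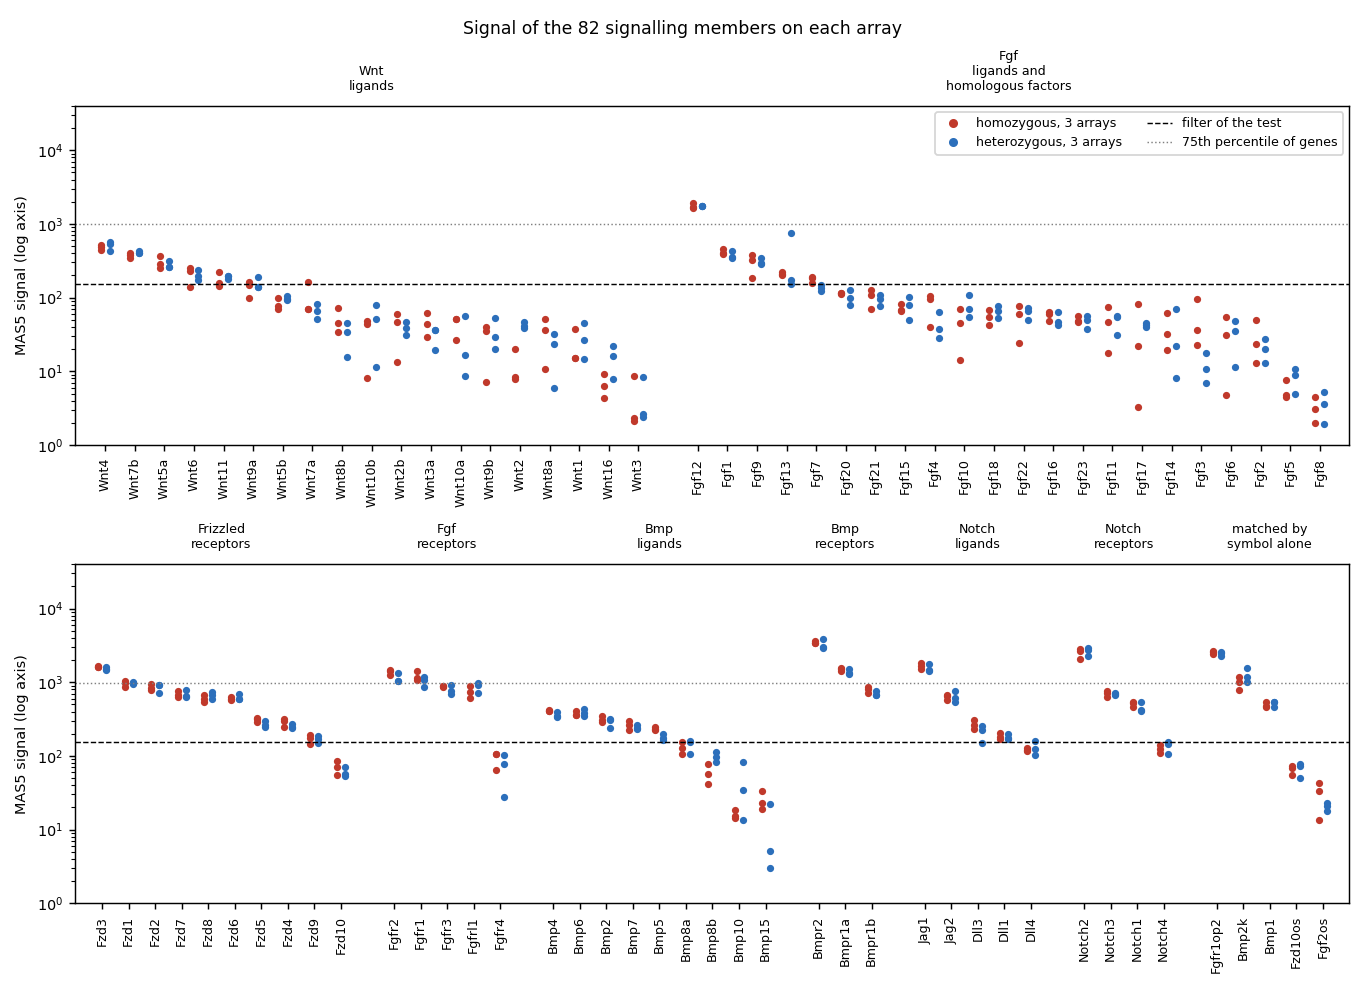
MAS5 signal (log axis) of each of the 82 genes on each array, 3 homozygous and 3 heterozygous, grouped by family and ordered by mean signal within a role. The dashed line marks a signal of 154.6, the filter of the test, and the dotted line 986.3, the 75th percentile over all genes. Most receptors lie above the dashed line on all arrays, while most Wnt and Fgf ligands lie below it and scatter widely.

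Of the 82 genes 10 were bright, with a mean signal at or above the 75th percentile of all genes, 986.3. These were the Bmp receptor genes Bmpr2 and Bmpr1a, the Fgf receptor genes Fgfr1 and Fgfr2, Fzd3, Notch2, the Notch ligand gene Jag1, and Fgf12. Fgfr1op2 and Bmp2k, which match the pattern but encode no ligand or receptor, were the others. No Wnt and no Bmp ligand gene was among them. The median within-group coefficient of variation was 11% over the 41 genes tested and 43.1% over the 41 below the filter.

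No signalling gene passed the comparison of homozygous with heterozygous arrays. In limma, with Benjamini-Hochberg adjustment over the 11426 genes tested, 0 of the 41 passed an adjusted p of 0.05, and over all genes the percentage called was 0. Their adjusted p lay between 0.952 and 0.9997. At an unadjusted p under 0.05, 2 of 41 were higher in homozygous arrays, Bmp5 and Fgfr2, beside 2.58% of all genes, and 0 of 41 were lower, beside 2.56%. The groups did not overlap for 3 genes higher in homozygous arrays, Bmp4, Bmp5 and Fgf7, beside 4.82% of all genes, and for 1 lower, Wnt7b, beside 5.51%. These shares of the 41, 4.88%, 0%, 7.32% and 2.44%, are near those of all genes. By sign alone 25 of the 41 were higher, or 61%, beside 49.8% of all genes tested, and the median difference was 0.02 (log2, homozygous minus heterozygous), against -0.0004 over all genes tested. The share of 49.8% is also the background for the counts of higher means by family that follow. With arrays shifted to a common median the median difference of the 41 was -0.02, where that of all genes was -0.04. Of all genes at an unadjusted p under 0.05, 50.2% were higher in homozygous arrays, and 18.4% with arrays shifted to a common median.

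The intervals say how large a difference between the groups as labelled could have been missed. They keep heterozygous 1, which lay with the homozygous arrays at 1 Omp probe set, in its labelled group. If that label is wrong they do not bound a difference between the genotypes, and this was not tested. Differences without that library are given below. For 36 of the 41 genes the 95% interval of the difference, taken on signal plus 38.8, lay within 1.5-fold in either direction. The other 5 were Bmp2k, Bmp5, Dll3, Fgf13 and Fgf7, whose intervals reach past that size. On the signal alone the folds are larger, most of all for dim genes, so fewer intervals may lie within 1.5-fold there.

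The genes at an unadjusted p under 0.05 changed with every array left out, not only with the 3 libraries that stood apart. In each of these fits 0 signalling genes passed adjustment in limma. Without heterozygous 3 there were 5, or 12.2% of the 41, beside 7.61% of all genes. They were Bmp4 with a difference of 0.24, Bmp5 with 0.40, Bmpr2 with 0.24, Fgfr2 with 0.37 and Fgfr3 with 0.25, all higher in homozygous arrays. Without the library labelled heterozygous 1 there were 3, or 7.32%, beside 7.23% of all genes. These were Bmpr1b with 0.25, Dll3 with 0.45 and Notch1 with 0.25, and neither Bmp5 nor Fgfr2 was among them. Without homozygous 1 there was 1, or 2.44%, beside 3.53% of all genes, namely Fgfrl1 with -0.34. Leaving out homozygous 2 gave Bmp5 alone, beside 356 of 11426 genes, and leaving out homozygous 3 gave Bmp2k, Bmpr1b and Fgfr2, beside 527. Leaving out heterozygous 2 gave Bmp2k, Fgfr1 and Fgfrl1, beside 586. With all arrays and no filter there were 5 of 82, or 6.1%, beside 5.11% of all genes.

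**Figure D2:**
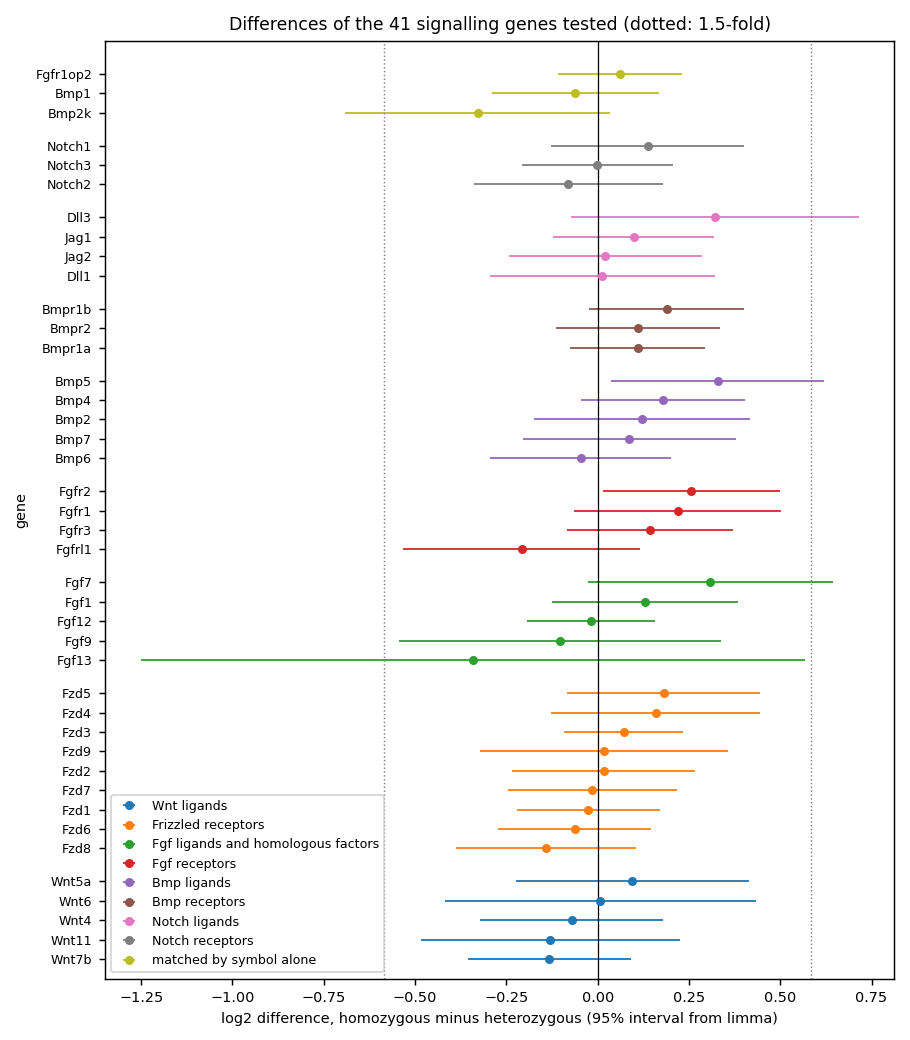
Log2 difference, homozygous minus heterozygous, of the 41 genes tested, with 95% intervals from limma, grouped by role. The intervals of Bmp5 and Fgfr2 lie above 0 before any adjustment, and that of Fgf13 is the widest. Of the 41 intervals, taken with all arrays as labelled, 36 lie between the dotted lines, which mark 1.5-fold of signal plus 38.8.

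None of the 5 Wnt ligands tested was bright, and none passed the test. Wnt4, the ligand gene of highest signal on its probe set, read 448, 513 and 485 in homozygous 1, 2 and 3, and 434, 570.0 and 529 in heterozygous 1, 2 and 3. The groups overlapped, and the difference was -0.07 ± 0.11 on the log2 scale (SE), and -0.08 at its other probe set. Wnt7b, a ligand of epithelial and neural tissue, read 373, 399 and 344 in homozygous arrays against 406.5, 401 and 425 in heterozygous arrays. Every heterozygous array was thus above every homozygous one, though homozygous 2 and heterozygous 2 lay close together, and the difference of -0.13 had a 95% interval from -0.35 to 0.09. At its other probe set above the filter Wnt7b differed by 0.12, so its probe sets differ in sign. Wnt5a, which acts mainly through pathways without beta-catenin, read 372, 285 and 255 against 314, 262 and 264, a difference of 0.10 with overlap, and -0.23 at another probe set. Wnt6 and Wnt11, also above the filter, differed by 0.01 and -0.13. The median over the 5 ligands was -0.07, and 0.01 without heterozygous 2.

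Several of these genes lie side by side in the genome. By the RefSeq gene order 4 pairs of Wnt genes were direct neighbours: Wnt6 and Wnt10a, Wnt3a and Wnt9a, Wnt9b and Wnt3, and Wnt10b and Wnt1. Wnt6 was the only one of these 8 above the filter, beside 5 of all 19 Wnt ligand genes. Among clustered Fgf genes, Fgf3 neighbours Fgf4, Fgf4 neighbours Fgf15, and Fgf6 neighbours Fgf23. All of these lay below the filter, where 3 of all 18 secreted Fgf genes lay above it.

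Of the 10 Frizzled receptor genes 9 were tested, and only Fzd10 lay below the filter. Fzd3, a receptor of axon guidance and planar polarity, read 1652, 1611 and 1590 in homozygous arrays and 1465, 1530 and 1619 in heterozygous arrays. Its within-group coefficient of variation, 3.7%, was the lowest of the 41 genes, and its difference of 0.07 had an interval from -0.09 to 0.24. Of its other probe sets 3 passed the filter and differed by 0.13, -0.0044 and 0.11. Fzd1 read 1032, 965 and 856 against 969, 997 and 933, a difference of -0.03, and -0.16 at its other probe set. Fzd2 read 949, 824.5 and 786.5 against 916, 913 and 709.9, a difference of 0.02, with -0.11 and -0.05 at its other probe sets. In both genes the groups overlapped widely. The lowest difference in the family was that of Fzd8, -0.14, with 677, 539 and 585 against 740, 669 and 589. Its other probe set differed by -0.30, at an unadjusted p of 0.0395 and a limma adjusted p of 0.867 over all probe sets. The highest was that of Fzd5, 0.18, with 325, 285 and 320 against 299, 266 and 243.5. The median over the family was 0.02, and it changed sign to -0.02 after quantile normalization and to -0.03 with arrays shifted to a common median. It was -0.06 without homozygous 1 and -0.05 without heterozygous 3, so its sign rests on single arrays.

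The Fgf family holds secreted ligands and intracellular homologous factors. The homologous factors Fgf11 to Fgf14 are not secreted and regulate neuronal sodium channels, and 2 of these 4 passed the filter, against 3 of 18 other Fgf genes. Fgf12 read 1626, 1685.5 and 1914 in homozygous and 1763, 1757 and 1760 in heterozygous arrays. The heterozygous arrays differed among themselves by under 6 signal units, the groups overlapped, and the difference was -0.02 with an interval from -0.19 to 0.16. The other probe sets of Fgf12 above the filter differed by 0.02 and -0.02.

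Fgf13 was set by a single array. It read 221, 201 and 211 in homozygous 1, 2 and 3, 172 and 153 in heterozygous 1 and 2, and 742.5 in heterozygous 3. Heterozygous 3 was 4.85 times the lowest array, and its second probe set, below the filter, was also highest there, at 96.6 against 1.9 to 41.9. The difference over all arrays was -0.34 ± 0.41 (log2, SE), with an interval from -1.25 to 0.57. Without heterozygous 3 it turned to 0.31, with all homozygous arrays above the other 2. Of the 8 bulb and brain markers 7 were highest in heterozygous 3, among them Rbfox3 of mature neurons, which read 791 there against 49.5 to 184 elsewhere. The exception was Eomes, which was lowest there, at 205 against 310.5 to 510.0. Of the 8 markers 4 passed the filter, and Tbr1 read 49.5 in heterozygous 3 and Slc17a7 80.3. Their part in the Fgf13 reading was not tested.

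Among the secreted Fgf ligands Fgf7, a growth factor made by mesenchyme for epithelial cells, had groups that did not overlap. It read 156, 190.3 and 185 in homozygous arrays against 122, 150.4 and 135 in heterozygous arrays. The lowest homozygous array lay just above the highest heterozygous one, and the difference was 0.31 ± 0.15 (log2, SE), at a limma adjusted p of 0.952. It lay between 0.25 and 0.38 with each array left out in turn. Without heterozygous 1 and 3 together it was 0.19. At its other probe set, just below the filter, the groups overlapped, with 141, 155 and 196 against 144, 133 and 132. Fgf1 read 407, 455 and 384 against 430.2, 354 and 348, a difference of 0.13. Fgf9 read 375, 322 and 185 against 345, 296 and 282, a difference of -0.10, and its other probe set differed by 0.26. Homozygous 3 was low at both Fgf9 probe sets, at 185 and 169, and without it the difference of Fgf9 turned to 0.16. Fgf2, Fgf8 and Fgf10, known as ligands in olfactory development, all lay below the filter, with mean signals of 24.4, 3.38 and 60.8.

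The 3 kinase-bearing Fgf receptors tested had higher homozygous means, and none passed. Fgfr2, the receptor of Fgf7 in its epithelial form, read 1462, 1432 and 1236 in homozygous arrays. In heterozygous 1, 2 and 3 it read 1050.2, 1053 and 1348. Heterozygous 3 was thus above homozygous 3, and the groups overlapped. The difference was 0.26 ± 0.11 (log2, SE), at an unadjusted p of 0.0396 and a limma adjusted p of 0.952. Leaving out the library labelled heterozygous 1 gave 0.20, leaving out heterozygous 3 gave 0.37, and at its other probe set above the filter it was 0.11. Fgfr1 read 1438, 1079 and 1148 against 1072, 1185 and 875, a difference of 0.22 that was 0.10 without homozygous 1 and 0.10 without heterozygous 3. Its other probe set differed by 0.15. Fgfr3 read 880.2, 887 and 857 against 764, 697 and 920.5, a difference of 0.14 that was -0.05 at its other probe set. Heterozygous 3 held its highest value, and the difference was 0.25 without that array and 0.06 without heterozygous 2. Fgfrl1, which lacks the kinase domain, went the other way, with 891, 603 and 740.5 against 905, 704.5 and 982, a difference of -0.21 that was 0.02 at its other probe set and -0.07 without homozygous 2. The probe sets used for Fgfr1, Fgfr2, Fgfrl1 and Notch3 end in _s_at, a class that Affymetrix designed to match several transcripts, so their signal need not come from 1 transcript. Fgfr4 lay below the filter. The median over the 4 receptor genes tested was 0.18, and 0.17 and 0.14 under the other scalings.

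Of the 5 Bmp ligands tested 4 had higher homozygous means, and none passed. Bmp5, a ligand of cartilage and mesenchyme, read 244, 225 and 234 in homozygous arrays against 162, 175 and 199.5 in heterozygous arrays. The groups did not overlap, and the gap between them was larger than the SD of either group, 9.45 in homozygous and 18.96 in heterozygous arrays (n = 3 each). The difference was 0.33 ± 0.13 (log2, SE), at an unadjusted p of 0.0304 and a limma adjusted p of 0.952, and it was 0.27 with the library labelled heterozygous 1 left out and 0.40 with heterozygous 3 left out. With the pooled-median offset it was 0.22. A second probe set of Bmp5, below the filter, also had groups that did not overlap, at 133.9 to 179.5 against 100.3 to 124, and the remaining probe set overlapped.

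Bmp4, a ligand known to limit proliferation of olfactory precursors at high dose, read 409.7, 412 and 419 in homozygous arrays and 351, 337.5 and 396 in heterozygous arrays. The homozygous arrays lay close together and above all heterozygous ones. The difference was 0.18 ± 0.10 (log2, SE), with an interval from -0.05 to 0.40. Bmp2 read 286, 348 and 309.9 against 318.5, 236.5 and 307, a difference of 0.12 with overlap that was 0.0048 without heterozygous 2, and Bmp7 differed by 0.09, with 0.28 and 0.07 at its other probe sets. Bmp6 was the exception in sign, with 408, 355 and 356 against 429, 383 and 348, a difference of -0.05. The median of the Bmp ligands was 0.12, and 0.09 and 0.08 under the other scalings. It was 0.06 without homozygous 2 and 0.27 without heterozygous 1 and 3 together. Among markers of other cell types, all 5 of endothelium and pericytes had a higher homozygous mean, with summed signals of 13752 to 13931 against 12627 to 13521, and all 6 of leukocytes too, with 8690 to 11458 against 7766 to 9343. Of the other lists, all 4 erythroid markers, 4 of 5 fibroblast markers and 5 of 6 cartilage and bone markers also had higher homozygous means. On the lower side were all 5 immature neuron markers, with sums of 29236 to 30361 against 31361 to 32381. So were 3 of 4 basal cell markers, with 2484 to 2634 against 2723 to 2744. In both of these lists the summed levels of the groups did not overlap. Nor did those of endothelium and pericytes, or of erythroid cells, at 7013 to 9197 against 6443 to 7004. Higher homozygous means were also held by 4 of 6 mature neuron, 3 of 4 respiratory ciliated and 3 of 4 skeletal muscle markers. The sums of these lists overlapped, as did those of leukocytes, of fibroblasts and of cartilage and bone. Only 1 of 5 sustentacular, 1 of 8 bulb and brain and 1 of 4 glial markers had a higher homozygous mean. The sums of those lists overlapped between the groups. The part of these cell types in the signalling gene readings was not tested.

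All 3 Bmp receptor genes were tested and had higher homozygous means. Bmpr2, the type II receptor, read 3358, 3670 and 3412 in homozygous arrays and 2995, 2892 and 3848 in heterozygous arrays. Heterozygous 3 was the highest of all 6 arrays, and the difference of 0.11 had an interval from -0.11 to 0.33. Without heterozygous 3 it was 0.24, and without heterozygous 2 it was 0.03. At its other probe set above the filter Bmpr2 differed by -0.01. Bmpr1a, a type I receptor, read 1553.5, 1495 and 1415 against 1289, 1504 and 1343, a difference of 0.11 that was -0.02 without heterozygous 1 and 3 together. Its other 3 probe sets above the filter differed by 0.07, -0.03 and 0.29, the last at an unadjusted p of 0.0429 and a limma adjusted p of 0.869 over all probe sets. Bmpr1b, the other type I receptor, read 867, 799 and 725 against 752.5, 666 and 662.5, a difference of 0.19 with an interval from -0.02 to 0.40. Its other probe set above the filter differed by 0.01.

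**Figure D3:**
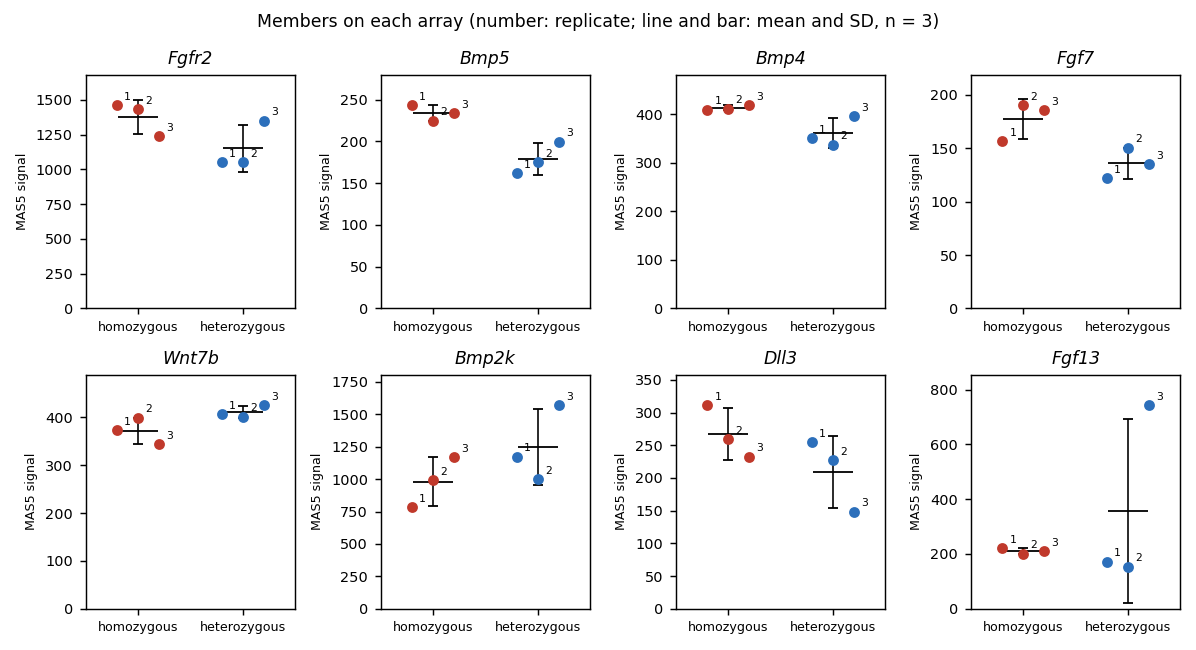
MAS5 signal of 8 genes on each array, with the replicate number beside each point and the mean and SD of each group (n = 3) as a line and bar. The groups of Bmp5, Bmp4, Fgf7 and Wnt7b do not overlap, those of Fgfr2, Bmp2k and Dll3 do, and the heterozygous mean of Fgf13 is set by replicate 3 at 742.5.

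Notch ligands spanned a wide range of signal. Jag1, a ligand that also marks supporting and stem cells in sensory epithelia, read 1530, 1810.5 and 1680.2 in homozygous arrays and 1790.5, 1464 and 1438 in heterozygous arrays. The difference at this probe set was 0.10 with overlap. At another the values were 545, 620 and 566 against 513, 445 and 441, so the groups did not overlap there, and the difference was 0.29, at an unadjusted p of 0.0177 and a limma adjusted p of 0.859 over all probe sets. The last probe set differed by 0.08. Jag2 read 676, 582 and 654 against 752, 602 and 542, a difference of 0.02, and its other probe set differed by 0.17. Dll3, an atypical ligand that acts within the cell, read 311, 259.6 and 233 against 254, 227 and 148. The groups overlapped, heterozygous 3 was low, and the difference of 0.32 was 0.13 without it. Dll1, which neuronal precursors present to their neighbours, read 202, 171 and 180.1 against 176, 201 and 170.3, a difference of 0.01.

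None of the 3 Notch receptors tested passed, and the groups overlapped in each. Notch2 read 2099, 2616 and 2802 in homozygous arrays and 2713, 2288 and 2937 in heterozygous arrays, a difference of -0.08 with an interval from -0.34 to 0.18. Notch3, known from pericytes and smooth muscle, read 709, 753 and 623 against 683, 673 and 723.5, a difference of -0.0005. Notch1 read 525, 539 and 459.6 against 545, 426 and 411, a difference of 0.14, and -0.16 at its other probe set. Without the library labelled heterozygous 1 that difference of 0.14 was 0.25, and without heterozygous 3 it was 0.07. The intervals of all 3, taken on signal plus 38.8 with all arrays as labelled, lay within 1.5-fold in either direction.

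Of the 5 genes that match the symbol pattern but encode no ligand or receptor of these families, 3 were tested. Bmp1 encodes a metalloprotease that trims collagen precursors, not a Bmp ligand, and differed by -0.06. Fgfr1op2, named for a fusion with Fgfr1, differed by 0.06. Bmp2k encodes a kinase first found as induced by Bmp2. It read 784, 992 and 1168 in homozygous arrays against 1175, 1001 and 1570 in heterozygous arrays, a difference of -0.33 ± 0.17 (log2, SE) with overlap. Its second probe set differed by -0.22, and the difference was -0.16 without heterozygous 3 and -0.18 without homozygous 1. The antisense genes Fgf2os and Fzd10os lay below the filter.

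Probe sets of a gene often did not agree in sign. Of 26 genes with more than 1 probe set above the filter, 12 had differences of both signs: Bmp1, Bmpr1a, Bmpr2, Fgf12, Fgf9, Fgfr3, Fgfrl1, Fzd2, Fzd3, Notch1, Wnt5a and Wnt7b. Where each gene was given the mean over its probe sets, 34 signalling genes passed the filter, 0 had an unadjusted p under 0.05, and the difference of Wnt7b was -0.0050.

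Between arrays the signalling genes stood high in homozygous 1. It held the highest value for 16 of the 41 genes tested, or 39%, where it held the highest for 14.8% of all genes tested. Heterozygous 3 held the lowest for 11 of the 41, or 26.8%, beside 27.5% of all genes. The median deviation of the 41 from each gene's own mean was 0.09 in homozygous 1, 0.03 in homozygous 2 and -0.02 in homozygous 3. In heterozygous 1, 2 and 3 it was 0.01, -0.04 and -0.06. Homozygous 1 was thus above the other arrays, while homozygous 3 lay below heterozygous 1. Homozygous 1 is also the array of low Xist, at 112, and high Eif2s3y, at 1485 against 8.0 to 1060, and of the highest summed erythroid markers, at 9197 against 6443 to 7102. Their part in its signalling gene levels was not tested. Without homozygous 1 the median difference of the 41 genes was 0.03, and without homozygous 3 it was 0.08.

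The sequences before the start sites of Bmp5, Fgfr2, Bmp4 and Fgf7 are shown because these genes were higher at an unadjusted p under 0.05 or had groups that did not overlap. They are RefSeq sequences of assembly GRCm38.p6, the 250 bases before the start on the gene's own strand, 5′ to 3′, with each CG dinucleotide in capitals. They cover Fgf7 at chr2:126034408-126034657 (plus strand), Fgfr2 at chr7:130266809-130267058 (minus strand), Bmp4 at chr14:46390670-46390919 (minus strand) and Bmp5 at chr9:75775115-75775364 (plus strand). Wnt7b had no entry.
Fgf7: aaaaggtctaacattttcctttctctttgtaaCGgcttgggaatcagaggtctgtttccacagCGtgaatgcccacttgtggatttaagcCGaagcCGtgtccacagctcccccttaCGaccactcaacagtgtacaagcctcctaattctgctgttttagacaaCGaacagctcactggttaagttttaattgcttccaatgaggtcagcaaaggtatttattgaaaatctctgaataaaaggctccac
Fgfr2: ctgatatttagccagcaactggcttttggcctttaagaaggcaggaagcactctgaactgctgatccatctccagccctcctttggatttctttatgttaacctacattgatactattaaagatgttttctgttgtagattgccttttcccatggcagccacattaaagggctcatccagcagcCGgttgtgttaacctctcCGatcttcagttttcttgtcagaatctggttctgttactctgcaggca
Bmp4: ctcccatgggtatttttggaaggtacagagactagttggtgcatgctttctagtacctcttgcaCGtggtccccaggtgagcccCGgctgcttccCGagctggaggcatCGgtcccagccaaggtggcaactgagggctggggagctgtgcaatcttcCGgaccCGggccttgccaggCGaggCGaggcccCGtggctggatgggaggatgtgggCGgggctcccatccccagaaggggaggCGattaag
Bmp5: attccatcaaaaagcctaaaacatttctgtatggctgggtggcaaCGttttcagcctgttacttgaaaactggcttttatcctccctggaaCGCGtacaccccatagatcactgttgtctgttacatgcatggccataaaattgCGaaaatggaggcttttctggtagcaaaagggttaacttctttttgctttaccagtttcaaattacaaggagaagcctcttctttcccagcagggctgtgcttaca

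The CG dinucleotides in these 4 stretches number 6 for Fgf7, 2 for Fgfr2, 11 for Bmp4 and 4 for Bmp5. Where several starts of a gene were listed, the one furthest upstream was taken, which need not be the start used in this tissue. RefSeq windows of 300 bases, from 250 before to 50 after the start, were matched to 63 of the 82 genes. In these windows Fgf7, Fgfr2, Bmp4 and Bmp5 held 11, 4, 12 and 4. The median CG count of the signalling genes was 24.5 over 30 genes above the filter and 18 over 33 below it. Over all matched genes of the array it was 21.0 above and 6.0 below, so the signalling genes below the filter had a higher median than other genes below it, given as a description with no test. The letters CTTTGA, bound by the Wnt effectors of the TCF/LEF family, were found on either strand in 9.52% of the 63 windows and in 13.7% of all matched array genes. The letters TGGGAA, bound by the Notch effector Rbpj, were found in 19% and 24.1%. Such a match is a description of letters, not a binding site.

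The partners of these pathways, 124 genes from a list of coreceptors, antagonists, signal transducers and targets, gave no gene that passed. Of 95 tested, 0 passed adjustment in limma, and the median difference was -0.0045. At an unadjusted p under 0.05, 3 were higher, or 3.16%, and 4 lower, or 4.21%, beside 2.58% and 2.56% of all genes. The groups did not overlap for 6 higher and 6 lower, or 6.32% each, beside 4.82% and 5.51%. Wnt partners gave 5 of these 7 genes, or 17.2% of 29 tested, beside 5.15% of all genes in either direction. The secreted Wnt antagonist genes differed in sign: Sfrp2 read 4166, 4104 and 3500.3 in homozygous against 3286, 3683 and 2901.5 in heterozygous arrays, and Sfrp4 read 1525, 1590.1 and 1770.2 against 1822, 1962 and 1942. Their differences were 0.25 and -0.23, and the groups of Sfrp4 did not overlap. Without heterozygous 1 and 3 together that of Sfrp2 was 0.09. Wif1, another antagonist gene, read 717, 690.4 and 815 against 674, 618 and 590.1, a difference of 0.23 without overlap. Znrf3, a membrane ligase that removes Frizzled receptors, read 649.6, 551 and 567 against 663, 741.5 and 807, a difference of -0.30 without overlap. Tcf7l1, a repressor among the TCF factors, read 289, 489.8 and 685 against 844, 971 and 802, a difference of -0.86 without overlap at 1 probe set, and of -0.0030 at the other.

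The other pathways gave 1 such gene each for Fgf and Notch, and none for Bmp. Fgfbp3, which releases Fgf proteins from the matrix, read 456, 393 and 477 in homozygous against 563, 552 and 511.5 in heterozygous arrays, a difference of -0.28 without overlap. Rbpj, the DNA-binding partner of activated Notch, read 1912.5, 1893 and 2026 against 1797, 1749.6 and 1510.5, a difference of 0.20 without overlap, with 0.20 and 0.09 at its other probe sets. With arrays shifted to a common median the difference of Rbpj was 0.16, and without heterozygous 3 it was 0.13. The limma adjusted p of these 7 partners was 0.952.

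Among the partners of highest signal were several pathway targets, none of which passed the test. Id4, a target of Bmp signalling, read 9083 to 9560 in homozygous and 7708 to 9959 in heterozygous arrays. Dusp6, a target of Fgf signalling that dampens it, read 1829 to 2070 against 1677.5 to 1950, and Spry2, another inhibitor, 1642.5 to 2017.5 against 1539 to 1950.1. Hey1, a target of Notch signalling, read 2230.5 to 2458 against 2059 to 2561. Ctnnb1, which encodes beta-catenin, the transducer of Wnt signalling, read 16314 to 17011 against 16062 to 16564. In each of these 5 genes the groups overlapped. The transducer Smad4 of the Bmp pathway differed by 0.0050, and Adam10 and Psenen, whose products cleave Notch, by -0.09 and -0.07. Gsk3b, Wls, Flrt1 and Fstl1, also among the partners of highest signal, differed by -0.02, -0.07, -0.03 and 0.07.

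**Figure D4:**
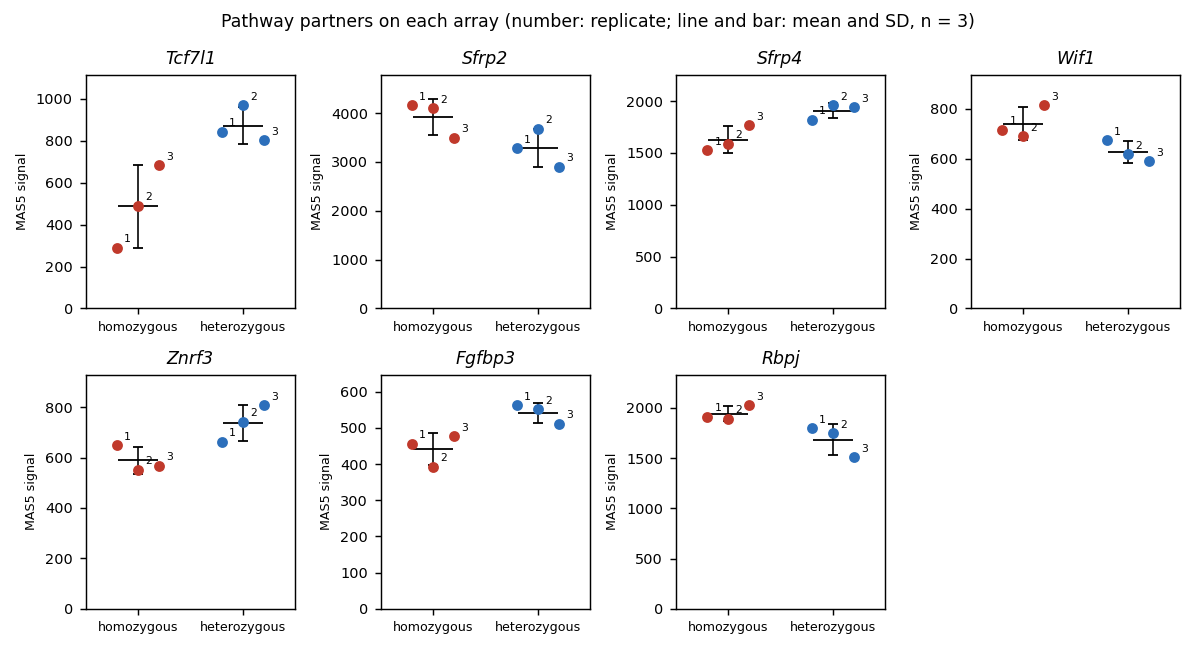
MAS5 signal of the 7 pathway partners with an unadjusted p under 0.05 on each array, with the replicate number beside each point and the mean and SD of each group (n = 3). The groups overlap for Sfrp2 and do not for the other 6, and none passed adjustment.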

How the data were processed

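The deposited table gives for each probe set an intensity that the submitters' processing notes credit to MAS5, whose version and settings no source used here gives. Its values are linear. The 2% trimmed mean was 500 on all 6 arrays, so no further scaling was done. The table holds 45101 probe sets, of which the platform annotation names 1 gene for 34958. Entrez identifiers of 80 of the 82 genes were found in the RefSeq table, 0 under another symbol there.

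Values were analysed as log2(value + 38.8), the 25th percentile of all values, which understates differences of dim genes. Genes were fitted with limma (version 3.58.1, R 4.3.3; lmFit, eBayes with trend, 4 residual degrees of freedom), and p-values were adjusted over 11426 genes, or over 22514 probe sets where a second probe set is given. The fit was also run on simulated data with independent noise. Those data held no library that stands apart, so they cannot show how the fit handles such libraries. The number of arrays limits the precision.

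The signalling genes and lists were chosen with earlier results of these data known. Values were given by rule for genes at unadjusted p under 0.05, the 3 of highest signal per family, those at or above the 75th percentile, and the lowest and highest difference per family. Partners were named at unadjusted p under 0.05 or as the 3 of highest signal per pathway. Other genes named were chosen after their values were seen. Of 133 partners listed, 9 had no named probe set and were not analysed here.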

Additional observations from a re-analysis of the deposited data

How the results depend on the processing

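No signalling gene passed an adjusted p of 0.05 in limma under any of the 16 alternative settings or at a threshold of 0.1. Over all genes 0 passed as reported, with 588 at an unadjusted p under 0.05. Leaving out 1 array gave 0 to 2, the 2 without the library labelled heterozygous 1, and leaving out heterozygous 1 and 3 together gave 10. That last setting leaves 1 heterozygous array, assumed to vary like the others. Over all probe sets 1 passed with the pooled-median offset, 0 to 25 with 1 array left out, and 30 without heterozygous 1 and 3. Signalling genes at an unadjusted p under 0.05 numbered 2 as reported. They were 1 with arrays shifted to a common median, 5 with no filter, 1 with the filter at the 75th percentile, 0 with the mean of all probe sets and 1 to 5 with 1 array left out. The median difference of the signalling genes, 0.0205 as reported, lay between 0.0287 and 0.0843 with 1 array left out. Of 34 signalling genes given with values by rule, 17 changed sign under at least 1 alternative. The share higher among genes at an unadjusted p under 0.05 was 50.2%, 43.8% after quantile normalization and 18.4% with arrays shifted to a common median. The cause of these changes was not tested.

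With the replicate number as a block, 1 signalling gene, Bmp2k, had an unadjusted p under 0.05, and 0 passed adjustment. Same-numbered arrays had correlations of deviations of 0, -0.11 and -0.10, so the numbers were not taken to pair the samples. The highest of all was 0.12, of homozygous 2 with heterozygous 3.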

Other observations

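Below the filter, 3 more signalling genes had an unadjusted p under 0.05 when no filter was applied, and 0 passed adjustment in limma. With the others that made 5 of 82, or 6.1%, beside 5.11% of all genes in that fit. Wnt2 read 8.4, 7.9 and 20.3 in homozygous and 38.2, 46.3 and 40.6 in heterozygous arrays. Fgf3 read 22.7, 36.6 and 95.5 against 17.5, 6.9 and 10.8, and Bmp8b read 41.0, 77.6 and 56.7 against 98.1, 114.7 and 82.2. The groups of these genes did not overlap, but all their values lie below the filter of 154.6, where the median within-group coefficient of variation of signalling genes was 43.1%.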
